A study of Mus musculus with 2 samples.

Results

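Among the 2202 microRNA genes counted in mouse gastrocnemius, 5 belong to a set known from white blood cells: Mir142, Mir142b, Mir150, Mir223 and Mir342. They were found by gene name in GENCODE M21, and the names were chosen with earlier results of these data known. The gastrocnemius is the large muscle of the calf. Both libraries came from this muscle of adult male mice, 8 to 10 months old, of the strain given as 5xFAD/CAST. CAST is a wild-derived inbred strain, and 5xFAD is a transgenic line that develops amyloid plaques in the brain. The labels state neither whether these animals carried the transgenes nor which promoter drives them. The 2 libraries, of RNA under 30 bases, are biological replicates 1 and 2 of 1 group and share a donor record. Nothing states that they came from separate animals, so their spread may be technical. There was no contrast of conditions, and each comparison below is between genes or between these 2 libraries.

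A microRNA is cut from a hairpin in a longer transcript, loaded into an Argonaute protein, and directs it to messenger RNAs that pair with its seed, bases 2 to 8. Mir142 is active in nearly all cells of the blood lineage, and Mir142b is annotated on its opposite strand. Mir150 is known from mature B and T lymphocytes, where the transcription factor gene Myb is a target. Mir223 is known from granulocytes, monocytes and platelets. Mir342 lies within Evl, a gene for an actin regulator, and is known from lymphoid and dendritic cells, among others. Skeletal muscle holds macrophages, lymphocytes and blood in its vessels, and whole tissue contains the RNA of all of them.

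The mature products of these genes in a RefSeq table (build GRCm38.p6) are shown because the seed tells which transcripts a microRNA can pair with. The seed is in capitals, 5′ to 3′.
miR-142a-5p: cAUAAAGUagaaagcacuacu
miR-142a-3p: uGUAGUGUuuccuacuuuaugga
miR-142b: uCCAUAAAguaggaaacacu
miR-150-3p: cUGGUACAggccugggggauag
miR-223-5p: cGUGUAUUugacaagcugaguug
miR-223-3p: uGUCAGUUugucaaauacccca
miR-342-5p: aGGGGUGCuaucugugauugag
miR-342-3p: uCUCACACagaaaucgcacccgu

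No 2 of these 8 products had the same seed, and none shared its seed with a product of another gene among the 1738 mature products in that table. The other product of Mir150, miR-150-5p, was not in that table, so its seed was not compared. The deposited counts are per hairpin, so the 5p and 3p products of a gene cannot be told apart.

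All 5 genes are annotated as microRNA genes of mm10. Mir142 (ENSMUSG00000105196.1) lies at chr11:87756864-87756927 on the plus strand, in an intron of the lincRNA gene Mir142hg. Mir142b (ENSMUSG00000065420.2) lies at chr11:87756841-87756955 on the minus strand and covers Mir142 whole. Mir150 (ENSMUSG00000065495.1) lies at chr7:45121757-45121821 on the plus strand and overlaps no other annotated gene. Mir223 (ENSMUSG00000076066.1) lies at chrX:96242817-96242926 on the plus strand, in an exon of both overlapping transcripts of the noncoding gene F630028O10Rik. Mir342 (ENSMUSG00000065436.1) lies at chr12:108658620-108658718 on the plus strand, in an intron of all 5 Evl transcripts that cover it.

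The hairpins of the overlapping pair are shown because their counts depend on the strand, with mature products in capitals.
Mir142: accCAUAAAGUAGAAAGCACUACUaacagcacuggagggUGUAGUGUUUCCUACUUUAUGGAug
Mir142b: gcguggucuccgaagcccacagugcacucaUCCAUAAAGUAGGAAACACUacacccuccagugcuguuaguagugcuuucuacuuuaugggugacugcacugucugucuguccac

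The 64 bases of Mir142 are contained in the reverse complement of the 115 bases of Mir142b. The 20 bases of miR-142b are the reverse complement of 20 of the 23 bases of miR-142a-3p, so a read of either product can be assigned only by its strand. None of the 5 hairpins shared a run of 20 bases with a microRNA gene at another place, as 1087 of the 2202 genes did. The longest such shared run was 13 bases for Mir142, Mir142b and Mir150, and 12 bases for Mir223 and Mir342. This bears on the counts because reads aligned to several places, 60.2% of replicate 1 and 63.2% of replicate 2, were counted in no gene. Places outside microRNA genes were not searched.

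The sense reads in microRNA genes numbered 1157420 in the first library, replicate 1, and 1193393 in the second, replicate 2. Levels are counts per 1000000 of these (CPM), intervals are exact Clopper-Pearson 95% intervals for counting error only, and detected means 2 CPM or more in both libraries. Mir142, Mir150, Mir223 and Mir342 were detected, 4 of the 5 genes, beside 321 of all 2202 genes or 14.6%. The 5 genes held 0.181% of the sense reads in replicate 1 and 0.115% in replicate 2, a mean of 0.148% ± 0.0471 (SD, n = 2). In whole tissue, fewer cells of a type and less RNA per cell cannot be told apart, nor can cells resident in the muscle and blood left in its vessels.

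Mir150 was the most abundant of the set. It had 1560 reads in replicate 1, or 1348 CPM (1282 to 1416), and 994 reads in replicate 2, or 833 CPM (782 to 886). Its mean of 1090 ± 364 CPM (SD, n = 2) put it at rank 53 of all genes. The lymphocyte microRNA was thus higher in replicate 1, and its 2 intervals did not overlap.

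Mir342, the microRNA in the Evl intron, came next. It had 380 reads in replicate 1, or 328 CPM (296 to 363), and 238 reads in replicate 2, or 199 CPM (175 to 226). Its mean was 264 ± 91.1 CPM (SD, n = 2), at rank 93. Its level was also higher in replicate 1, with intervals that did not overlap, and in each library it lay below that of Mir150.

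Mir142, of nearly all blood cells, had 70 reads in replicate 1, or 60.5 CPM (47.1 to 76.4), and 81 reads in replicate 2, or 67.9 CPM (53.9 to 84.4). Its mean was 64.2 ± 5.23 CPM (SD, n = 2), at rank 146. Mir142 was the only detected gene of the set whose level was not higher in replicate 1, and its intervals overlapped.

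Mir223, the granulocyte and monocyte microRNA, had 88 reads in replicate 1, or 76.0 CPM (61.0 to 93.7), and 56 reads in replicate 2, or 46.9 CPM (35.4 to 60.9). Its mean was 61.5 ± 20.6 CPM (SD, n = 2), at rank 149. The higher value was again in replicate 1, and the upper end of the one interval, 60.9 CPM, lay just under the lower end of the other, 61.0 CPM.

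Mir142b had 0 reads on its own strand in either library, so that a level of up to 2.59 CPM in the first and 2.51 CPM in the second could have gone unseen, by a limit of 3 counts. The exact intervals used for the other genes reach 3.19 and 3.09 CPM for 0 reads. The reads opposite to Mir142b numbered 70 and 81, the same as the sense reads of Mir142, while Mir142, Mir150, Mir223 and Mir342 had no opposite-strand read. Every read counted at the Mir142 locus therefore lay on the strand of Mir142. Among the 299 detected genes that overlap no microRNA gene on the other strand, 9 had any opposite-strand read. In the column that joins both strands Mir142 and Mir142b were both at 0, although the stranded columns held 70 and 81 reads there.

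**Figure D1:**
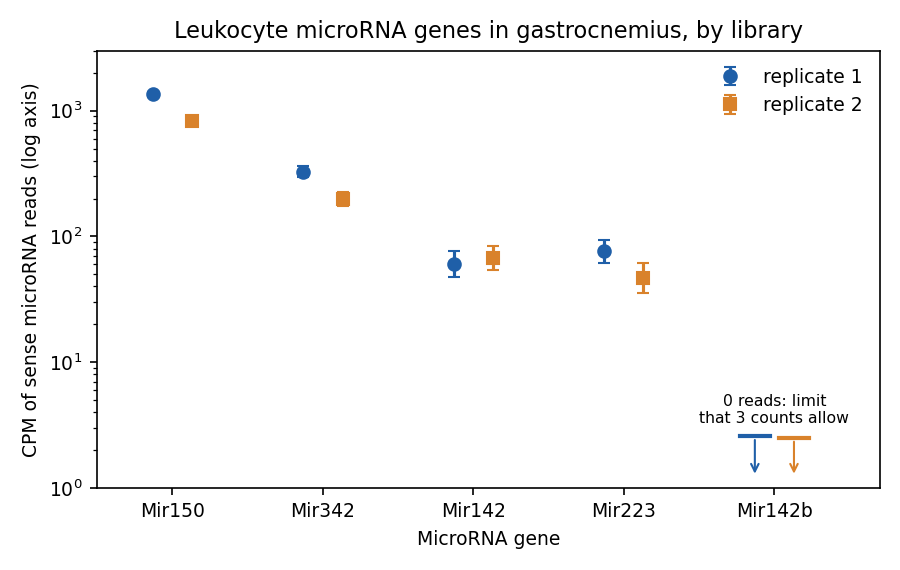
CPM of sense microRNA reads (log axis) for the 5 genes, with circles for replicate 1, squares for replicate 2 and bars for the exact 95% interval of counting error; the lines with arrows at Mir142b are the 2.59 and 2.51 CPM that 0 reads allow by a limit of 3 counts. Mir150 lies highest at 1348 and 833 CPM, and Mir142 and Mir223 lie together below 100 CPM.

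The order of levels was Mir150, Mir342 and then Mir142 with Mir223, and it was the same in both libraries down to Mir342. Mir142 and Mir223 did not keep 1 order in CPM over both libraries. Mir223 was the higher of these in replicate 1 and Mir142 in replicate 2, and in each library their intervals overlapped. Their direct ratio, Mir142 over Mir223, was 0.795 in replicate 1 (0.573 to 1.10) and 1.45 in replicate 2 (1.02 to 2.07). On counting error alone, only the interval of replicate 2 excluded 1. Per 100 bases of hairpin, Mir150 had a mean level of 1677 CPM, Mir342 of 267, Mir142 of 100.3 and Mir223 of 55.9. On this scale Mir142 was above Mir223 in both libraries, at 94.5 against 69.1 CPM per 100 bases in replicate 1 and 106 against 42.7 in replicate 2. In replicate 1 this order came from dividing by hairpins of 64 bases for Mir142 and 110 for Mir223. The mature products cover 44 and 45 of those bases. The counts are per hairpin, with no read positions or lengths, and how a hairpin's length bears on its reads was not tested. With 2 values for each gene, no test between genes was made.

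The genes nearest in level, by the distance between log2(CPM + 1) values in the 2 libraries, were Mir34a at 1087 ± 325 CPM and Mir652 at 1073 ± 211 CPM for Mir150 (SD, n = 2). For Mir342 they were Mirlet7c-1 at 264 ± 99.0 CPM and Mir351 at 302 ± 136 CPM. Mir142 was nearest to Mir190a at 65.4 ± 5.80 CPM and Mir5099 at 67.7 ± 6.88 CPM, and Mir223 to Mir30c-1 at 63.2 ± 21.8 CPM and Mir92-2 at 59.3 ± 19.9 CPM. Likeness over 2 libraries describes only their level and ratio there. These levels lack any read that could not be placed uniquely, so those of genes with a copy elsewhere may be too low. The names of Mirlet7c-1, Mir30c-1 and Mir92-2 mark them as numbered copies, and their nearness in level is uncertain.

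**Figure D2:**
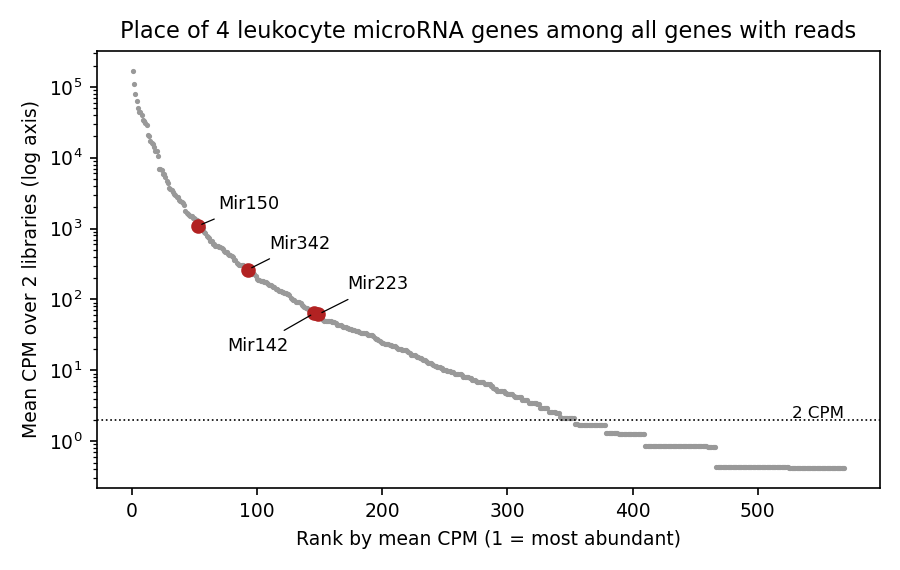
Mean CPM over the 2 libraries (log axis) against rank for all 569 genes with reads, in grey, with 4 of the leukocyte microRNA genes in red and the detection level of 2 CPM as a dotted line. Mir150 stands at rank 53, Mir342 at 93, Mir142 at 146 and Mir223 at 149.

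Mir150, Mir342 and Mir223 kept nearly the same proportions to each other in both libraries. Ratios between genes within a library need no scaling. Mir150 had 4.11 reads per Mir342 read in replicate 1 (3.67 to 4.60) and 4.18 in replicate 2 (3.62 to 4.83). It had 17.7 reads per Mir223 read in replicate 1 (14.3 to 22.2) and 17.8 in replicate 2 (13.6 to 23.7). Mir342 had 4.32 reads per Mir223 read in replicate 1 (3.42 to 5.51) and 4.25 in replicate 2 (3.16 to 5.79). In each of these 3 pairs the intervals overlapped almost whole.

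Mir142 stood in other proportions to the rest in the 2 libraries. There were 22.3 Mir150 reads per Mir142 read in replicate 1 (17.5 to 28.7) and 12.3 in replicate 2 (9.78 to 15.6). There were 5.43 Mir342 reads per Mir142 read in replicate 1 (4.20 to 7.11) and 2.94 in replicate 2 (2.27 to 3.83). For both of these pairs the intervals were separate. The ratio of Mir142 to Mir223 was 0.795 in replicate 1 (0.573 to 1.10) and 1.45 in replicate 2 (1.02 to 2.07). Those intervals overlapped, which does not show the ratios to be alike. The intervals of 2 of 6 pairs were thus separate, on counting error alone, and no test beyond counting error was made of these ratios. As a share of the reads of the set, Mir142 made up 3.34% in replicate 1 (2.61 to 4.20) and 5.92% in replicate 2 (4.73 to 7.30), and Mir150 made up 74.4% (72.4 to 76.2) and 72.6% (70.2 to 74.96).

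**Figure D3:**
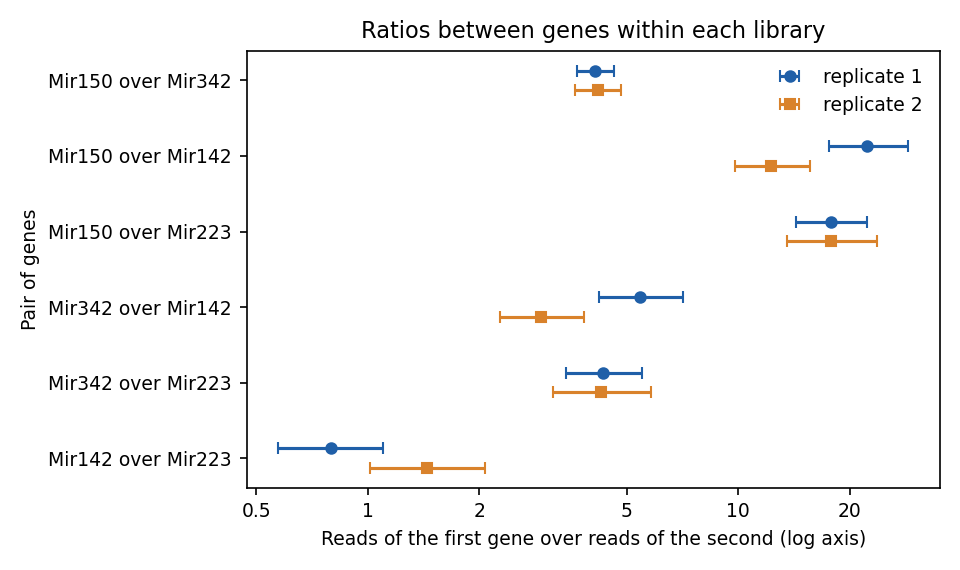
Reads of the first gene over reads of the second (log axis) for the 6 pairs of genes with reads, with circles for replicate 1, squares for replicate 2 and bars for the exact 95% interval of counting error. The 3 pairs among Mir150, Mir342 and Mir223 coincide between libraries, and the pairs of Mir142 with Mir150 and with Mir342 are separate.

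The level of each gene was then compared between the libraries after TMM scaling, which brings the bulk of genes to the same level, with a two-sided exact binomial test adjusted over the 321 detected genes. This compares 2 libraries and not conditions. Mir150 was 1.31-fold higher in replicate 1 (1.21 to 1.42; exact binomial adjusted p = 1.6e-10). Mir342 was 1.33-fold higher in replicate 1 (1.13 to 1.57; exact binomial adjusted p = 0.0017). These lymphoid microRNAs were called at an adjusted p of 0.05, both lower in replicate 2.

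The ratio of replicate 1 over replicate 2 was also 1.31 for Mir223, on few reads, and an interval of 0.927 to 1.87 included no change (exact binomial adjusted p = 0.25). For Mir142 the ratio of replicate 2 over replicate 1 was 1.39, and its interval of 0.996 to 1.94 also included no change (exact binomial adjusted p = 0.12). With Mir142b not tested, 2 of the 4 detected genes were called, beside 37.4% of all 321 detected genes. Both were lower in replicate 2, as were 18.7% of all detected genes, and 18.7% were higher. The median log2 ratio of replicate 2 over replicate 1 was -0.39 over the 4 genes and -0.01 over all detected genes.

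The scaling moved these values together. With total counts only, the median log2 ratio of all detected genes was -0.32, and the share called was 46.4%, with 35.5% lower in replicate 2. On that scale Mir150 was 1.62-fold, Mir342 1.65-fold and Mir223 1.62-fold higher in replicate 1, and Mir223 was then called too (exact binomial adjusted p = 0.012). The ratio of replicate 2 over replicate 1 for Mir142 was 1.12 (exact binomial adjusted p = 0.69). Relative to the median of all genes, the log2 ratio was -0.37 for Mir150, -0.38 for Mir223, -0.40 for Mir342 and 0.49 for Mir142. These differences are the same under any scaling by arithmetic, since scaling shifts the log2 ratio of every gene alike.

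The binomial test has no spread beyond counting error. With the spread that edgeR estimated from both libraries, a coefficient of variation of 33.8%, its exact test called none of the 4 genes (edgeR exact adjusted p = 1 for each) and 1.56% of all genes. None of the 4 had an unadjusted p under 0.05 in that test; the lowest was 0.54, for Mir142. The differences of Mir150 and Mir342 between the libraries were thus larger than counting error and did not pass once this general spread between the libraries was allowed for. That spread came from the same 2 libraries that were compared, so not passing says little about differences of this size.

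**Figure D4:**
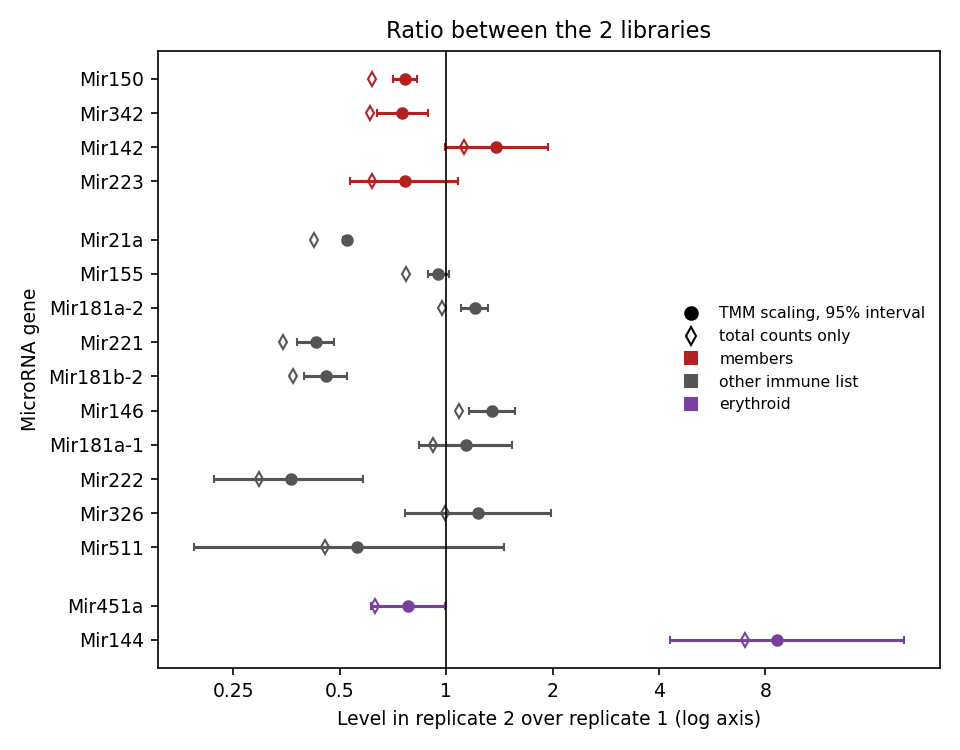
Level in replicate 2 over replicate 1 (log axis) for the leukocyte members (red), the other detected immune microRNA genes (grey) and the erythroid genes (purple). Filled points are ratios with TMM scaling and exact 95% intervals, and open diamonds are ratios with total counts only; Mir150, Mir342 and Mir223 lie at 0.764, 0.751 and 0.763, and Mir142 at 1.39.

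A list of 13 other microRNA genes of leukocytes and immune responses was set beside these: Mir155, Mir146, Mir146b, Mir147, Mir511, Mir326, Mir181a-1, Mir181a-2, Mir181b-1, Mir181b-2, Mir21a, Mir221 and Mir222. Of these, 10 were detected, beside 14.6% of all genes. By the exact binomial test 4 were lower in replicate 2, 2 were higher and 4 were not called, where 18.7% of all detected genes were called in each direction. With the spread that edgeR estimated, its exact test called none of the 10 (edgeR exact adjusted p = 1 for each), and none had an unadjusted p under 0.05. The median log2 ratio of the 10 was -0.46. Mir21a, which rises in inflamed and fibrotic tissue and is made by many cell types, was the most abundant, with 20516 and 8964 reads in replicates 1 and 2, and was 1.91-fold higher in replicate 1 (1.86 to 1.96). Mir155, a microRNA of activated lymphocytes and macrophages, had 1965 and 1557 reads and a ratio of replicate 1 over replicate 2 of 1.05 (0.984 to 1.13; exact binomial adjusted p = 0.25). The mean level of Mir155 was 1501 ± 278 CPM (SD, n = 2).

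Mir181a-2, of a family that acts in lymphocyte development, had 1010 and 1013 reads. Its ratio of replicate 2 over replicate 1 was 1.203 with TMM (exact binomial adjusted p = 0.00013) and 0.973 with total counts only, so that its direction depended on the scaling. It shares a run of 20 bases with another place, and its level is uncertain. Mir511, hosted in the macrophage receptor gene Mrc1 in mammals, had 15 and 7 reads.

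Markers of other cells give the setting of these levels. Of the erythroid list, Mir451a and Mir144 were detected and Mir451b was at 0. Mir451a had 180 and 117 reads and a ratio of replicate 1 over replicate 2 of 1.28 (1.01 to 1.63; exact binomial adjusted p = 0.092). Mir144, from the same erythroid cluster, went the other way with 9 and 65 reads. It was 8.66-fold higher in replicate 2 (4.29 to 19.8; exact binomial adjusted p = 3.3e-13). With the spread that edgeR estimated, Mir144 was still called (edgeR exact adjusted p = 0.033), as were 1.56% of all detected genes, and Mir451a was not. The erythroid genes together held 163 CPM in replicate 1 against 153 CPM in replicate 2. These CPM are without TMM scaling, unlike the ratios above. With the TMM factors replicate 2 would be the higher, so the direction depends on the scaling. The part of blood in the values of the leukocyte genes was not tested.

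The skeletal muscle list had 8 of 9 members detected and held 3.87% and 3.73% of the sense reads in replicates 1 and 2. Its member Mir206, which is specific to skeletal muscle, had 38135 and 39300 reads. Mir1a-1, Mir1a-2, Mir133a-1, Mir133a-2 and Mir133b each have 20 bases in common with another microRNA gene. None of these had more than 60 reads in a library, and reads that could not be placed uniquely are missing from their counts. The share of the skeletal muscle list may thus be too low, and it cannot be ranked against the shares of the other lists. The endothelium list had 1 of 2 members detected, Mir126a, with Mir126b at 0 and 1 reads, and held 8.08% and 13.8%. The smooth muscle list had 2 of 3 detected and held 5.08% and 4.21%. These shares are without TMM scaling. With the TMM factors the skeletal and smooth muscle lists would be higher in replicate 2, so their direction depends on the scaling. The liver microRNA Mir122 had 12 and 13 reads, and of 6 neuronal genes 5 were at 0 in both libraries and Mir9-1 had 0 and 1 reads. All 6 neuronal genes have 20 bases in common with 2 or 3 other microRNA genes. Reads that could not be placed uniquely are missing from their counts. These low counts therefore cannot tell whether neuronal RNA was present. The part of these other cell types in the library differences of Mir150 and Mir342 was not tested.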

How the data were processed

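Small RNA of 2 libraries of 1 group was measured. The authors deposited raw read counts for each microRNA gene in 3 columns without a header (both strands, and each strand). The text descriptions deposited beside them name mm10 as assembly and M21 as GENCODE release, and the aligner is not given in the sources used here. Lines of totals that name no gene, 4 per file, were kept out of library sizes; reads aligned to several places are only in those totals. Of the stranded columns, that with more reads in each library was used as sense. Counting error is all that intervals and limits cover, since reads copied by PCR, with no molecular identifiers, are not independent.

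All 2202 gene identifiers matched GENCODE M21. Sequences came from RefSeq (GRCm38.p6); 4 of the 5 hairpins matched, each identical to its GENCODE sequence. TMM factors over detected genes were 1.11 and 0.899 (edgeR 4.0.16, R 4.3.3). Each detected gene was tested with an exact conditional binomial test with Benjamini-Hochberg adjustment at 0.05. It was tried on simulated counts that held counting error only, as the test itself assumes. How it behaves with the wider spread of real libraries was therefore not tested. No quasi-likelihood test was possible, because 1 group gives no contrast. Alternatives were DESeq2 1.42.0 size factors, total counts, other filters, removal of genes sharing 20 bases with another place, the column of both strands, edgeR exact tests and leaving out each library. Python 3.11.15 with scipy 1.17.1 did the rest. Named were all 5 members, the 2 detected genes nearest to each, the 3 most abundant of the immune list and genes with a shared seed; Mir511 and the marker genes were named after their values were seen. The members and lists were chosen with earlier results of these data known.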

Additional observations from a re-analysis of the deposited data

How the results depend on the processing

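Of 43 values recomputed under the alternatives other than leaving out a library, 32 were classed as the same and none reversed. Levels and ratios so classed kept their direction and their side of the threshold or moved by less than 1 SD between the libraries. Counts of genes so classed could change, as members detected did from 4 to 3 in the column of both strands. The column of both strands loses reads that overlap genes on both strands: the members then held 0.201% of its reads, 3 of them were detected, and Mir142 was at 0. Without the most abundant gene in the denominator, the levels of all 4 detected members were scaled up by nearly the same factor, Mir142 to 77.2, Mir150 to 1317, Mir223 to 74.3 and Mir342 to 319 CPM. Without replicate 1 or replicate 2 the summed level was 0.115% and 0.181%; with 2 libraries this is each library's own value and says nothing about stability. With total counts only, Mir223 was also called. The edgeR exact test called 0 members and 53 of all genes at a dispersion of 0.01 (edgeR exact adjusted p of 0.24 for Mir150 and 0.28 for Mir342), and 0 members and 5 of all genes at the estimated dispersion; by construction these tests add spread beyond counting error. No other alternative changed which of the 4 detected members were called. No paired analysis was possible because the series has 1 group. Mir142 and Mir223, with 56 to 88 reads in a library, had the widest intervals of the library ratio among the 4 detected members, and whether Mir223 was called depended on the scaling.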

Other observations

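The raw read ratios of replicate 2 over replicate 1 lay between 0.626 and 0.637 for Mir150, Mir223 and Mir342. These genes lie on 3 chromosomes and differ up to 17.7-fold in reads. With TMM scaling this range was 0.751 to 0.764. The interval of each of the 3 ratios is wider than this range, that of Mir223 being 0.536 to 1.08. Their counts therefore cannot show so close a likeness. Of 167 detected genes with 100 or more reads over both libraries, 5 lay inside that range, these 3 included; the range was set after the values were seen. The ratios of the 167 genes had quartiles of 0.779 and 1.26, and 18.0% of these genes had a higher ratio than Mir142.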
